A study of Homo sapiens with 6 samples.

Results

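The 10 genes described here regulate MHC class II transcription or load peptides onto class II molecules. They are CIITA, RFX5, RFXAP, RFXANK, CD74, HLA-DMA, HLA-DMB, HLA-DOA, HLA-DOB and CTSS. They were chosen by symbol, through gene identifiers matched to GENCODE release 29, and all 10 were found among the 18278 genes listed. Polyadenylated RNA was sequenced from Toledo cells grown in suspension: 3 samples received TP-064, an inhibitor of the arginine methyltransferase CARM1, at 5 uM, and 3 received DMSO, the solvent. Both treatments lasted 6 days. Toledo is an established human line from a diffuse large B cell lymphoma, so every sample came from the same cell line and no normal B cell was measured. The study addressed CARM1 inhibition in lymphomas with mutated CREBBP or EP300. The labels do not say whether replicates were separate cultures. The p-values therefore reflect the spread among these 6 libraries alone, and that spread may be technical.

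MHC class II molecules carry peptides from endosomes to the surface of B cells and other antigen-presenting cells, where CD4 T cells read them. Their genes share a promoter module with an X box, bound by the RFX complex of RFX5, RFXAP and RFXANK, and a Y box, bound by the trimer NF-Y. CIITA does not bind DNA itself; it docks on these proteins and recruits coactivators, among them CREBBP, EP300 and CARM1. New class II chains assemble on the invariant chain CD74, which the protease CTSS trims in endosomes to a short fragment called CLIP. HLA-DM then exchanges CLIP for other peptides, and HLA-DO, made mainly in B cells, binds HLA-DM and restrains it.

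The libraries held 41354131 to 48360867 recovered reads. TP-064 replicate 3 stood apart from the other libraries. On the second principal component, which held 11.6% of the variance, it lay at -35.2, and the other 5 libraries lay between -6.37 and 21.3. Reads of 255 antisense genes, set against those of the abundant gene on the other strand, had a median of 0.693% in this replicate and 0.0766% to 0.115% in the other libraries. B cell markers were present throughout, with all 8 looked for among the genes listed and a summed level of 120001 to 129467 normalized read counts after TP-064 and 125982 to 127403 after DMSO. Of these 8, 2 were called higher and 4 lower, beside 31.9% higher and 33.3% lower among all tested genes. Among the markers called were MS4A1 at 1.86-fold, CD79A at 0.651-fold and CD22 at 0.171-fold. Only 4 of 10 myeloid and dendritic markers were among the genes listed, with S100A8, S100A9 and ITGAM not listed, and their sum was 233 to 249.8 after TP-064 and 93.0 to 141 after DMSO. CSF1R was higher at 5.10-fold and CD1C at 2.41-fold, CD14 was lower at 0.407-fold, and LYZ was not called (adjusted p = 0.384). Only 2 of 10 T and NK cell markers were among them, none of the CD3 chains, with a sum of 103 to 108 after TP-064 and 55.0 to 65.6 after DMSO, and 3 of 8 epithelial and stromal markers, at 402 to 453 after TP-064 and 315 to 349 after DMSO. In these lists TRAC was higher at 2.57-fold and PECAM1 at 8.10-fold, COL1A1 was lower at 0.476-fold, and KLRD1 and KRT8 were not called. The part of these markers in the results was not tested. CARM1 mRNA, whose protein the compound inhibits, had 3424 ± 67.4 normalized read counts in TP-064 samples and 4035 ± 168 in DMSO samples (SD, n = 3 each), a log2 fold change of -0.24 ± 0.04 (SE, with adjusted p = 8.10e-05 in limma).

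Of the 10 genes, 9 rose after TP-064 and 1, RFXAP, fell. A gene was called at a limma adjusted p under 0.05, with Benjamini-Hochberg adjustment over 16048 genes. By that rule 31.9% of all tested genes were higher and 33.3% were lower, 65.1% in all. The 10 genes had a median log2 fold change of 0.30, beside 0.01 for all tested genes. The changes were small, from 1.09-fold for HLA-DMA to 1.61-fold for HLA-DOA among the genes that rose. None of the 10 reached 2-fold, while 13.1% of tested genes were called and changed at least 2-fold. The 3 treated samples did not overlap the 3 controls for 9 of the 10 genes, 8 of them higher, where 69.1% of all tested genes were free of overlap and 33.9% were so and higher. Against a null of a 1.2-fold change, 5 of the 10 genes passed, all higher (RFX5, HLA-DMB, HLA-DOA, HLA-DOB and CTSS), beside 16.7% of tested genes that passed as higher and 34.8% in either direction. When values were scaled by library size only, the all-gene median was 0.13 and the share of called genes that were higher was 61.5%, against 48.9% with the authors' size factors. With that scaling the same 9 genes were higher and RFXAP was still lower, at -0.28, where 41.5% of all tested genes were higher and 25.9% lower. The median of the 10 was 0.42. Such scaling raises all log2 fold changes here by about the same amount, so of the 10 only RFXAP could have changed direction. Without TP-064 replicate 3 each of the 10 kept its call and its direction, with a median of 0.33, where 31.0% of all tested genes were higher and 32.3% lower. In bulk RNA a change in the number of cells that express a gene cannot be told apart from a change in RNA per cell.

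**Figure D1:**
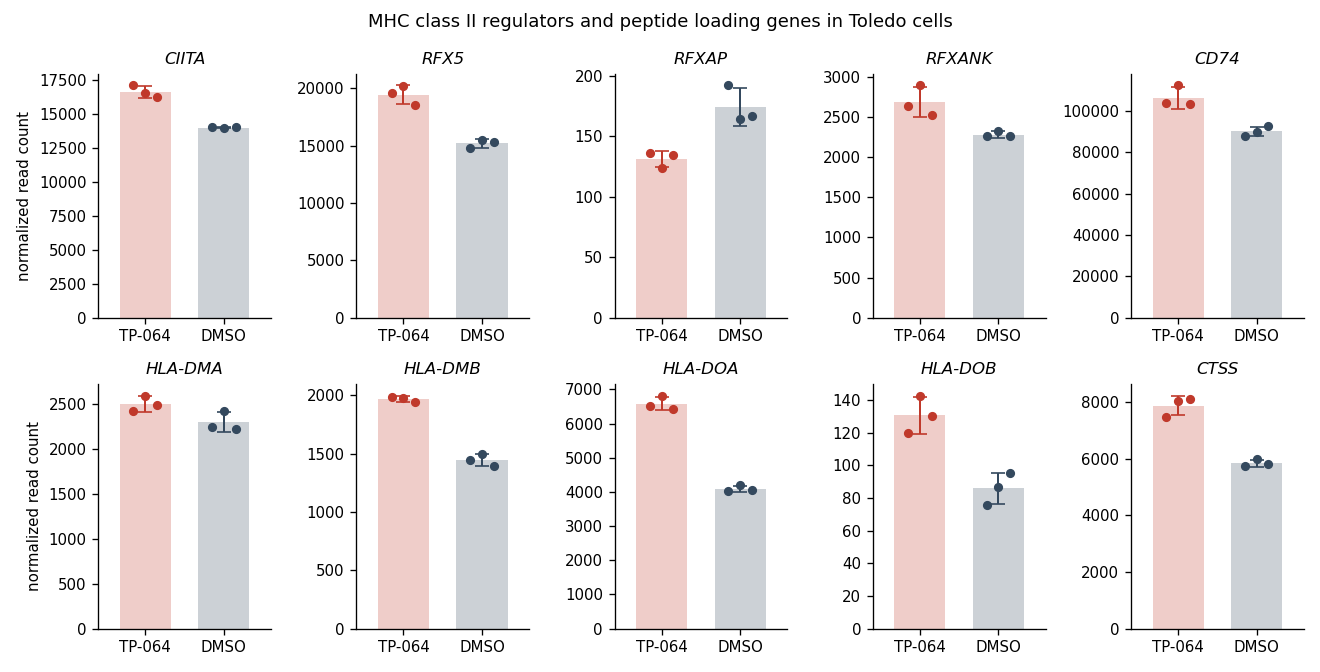
Normalized read counts of the 10 genes, with 1 panel per gene, TP-064 samples in red and DMSO samples in dark blue. Points are samples, bars are means of 3 and whiskers are SD; each axis starts at 0. RFXAP is the gene with the lower bar for TP-064, and HLA-DMA is the gene whose groups overlap.

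CIITA, the class II transactivator, lies on chromosome 16, plus strand, between bases 10866222 and 10943021 (GRCh38, used for all positions here). It had 17098, 16503 and 16227 normalized read counts in TP-064 samples, against 13997, 13943 and 14007 in DMSO samples. All 3 treated samples lay above all 3 controls, and the controls differed by less than the treated samples did. CIITA rose, with a log2 fold change of 0.25 ± 0.03 (SE, with adjusted p = 9.04e-06 in limma), or 1.19-fold. With each sample left out in turn the value ran from 0.23 to 0.26, and with library size scaling it was 0.37. The merged exons of CIITA share 2416 bases, or 11.6% of their length, with DEXI on the opposite strand. The library kit was stranded, but no source used here gives the strand setting for counting. DEXI was far lower than CIITA, with 402 ± 21.1 normalized read counts in TP-064 samples and 310.5 ± 7.47 in DMSO samples (SD, n = 3 each). The merged exons of CIITA also share 2378 bases, or 11.5%, with AC133065.3 on the same strand. AC133065.3 had 156 ± 16.5 normalized read counts in TP-064 samples and 191 ± 12.1 in DMSO samples (SD, n = 3 each). Its log2 fold change was -0.30 (adjusted p = 0.0263 in limma).

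RFX5, the DNA-binding subunit with the winged-helix domain, lies on chromosome 1, minus strand, between bases 151340640 and 151347357. It had 19612, 20164 and 18535 normalized read counts in TP-064 samples, against 14754, 15518 and 15359.9 in DMSO samples. Each treated sample exceeded each control by more than the spread within either group. RFX5 rose, with a log2 fold change of 0.35 ± 0.04 (SE, with adjusted p = 9.80e-07 in limma). It shares 358 exon bases with AL391069.1 and 93 with AL391069.3, both on the opposite strand. Both were far lower than RFX5, with means of 11.5 and 126 normalized read counts in TP-064 samples. Their means in DMSO samples were 0.360 and 96.6. RFXANK, the ankyrin repeat subunit, lies on chromosome 19, plus strand, between bases 19192229 and 19201869, and had 2637, 2895 and 2528 normalized read counts in TP-064 samples, against 2258, 2325 and 2258 in DMSO samples. It rose, with a log2 fold change of 0.23 ± 0.05 (SE, with adjusted p = 0.000531 in limma), with the highest treated sample, replicate 2, above the others of its group. RFXANK shares 363 exon bases with BORCS8 and 221 with NR2C2AP, both on the opposite strand. These neighbours moved in opposite directions, with BORCS8 at 0.47 (adjusted p = 0.000176) and NR2C2AP at -0.35 (adjusted p = 4.66e-05) on the log2 scale.

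RFXAP, the RFX associated protein and the remaining subunit of the complex, was the gene that fell. It lies on chromosome 13, plus strand, between bases 36819224 and 36829104, and had 136, 124 and 134 normalized read counts in TP-064 samples, against 192, 164 and 167 in DMSO samples. No treated sample reached the lowest control, and DMSO replicate 1 was the highest of the controls. The log2 fold change of -0.40 ± 0.11 (SE, with adjusted p = 0.00478 in limma) has a 95% interval from -0.64 to -0.17. It ran from -0.44 to -0.33 with each sample left out in turn and kept its call in each case. RFXAP was among the scarcest of the 10 genes, with 125 recovered reads in its lowest library, and it overlaps no listed exon on the opposite strand. Per kb of merged exon, the ratio of RFX5 to RFXAP was 71.8, 81.3 and 69.0 in TP-064 samples, against 38.4, 47.3 and 46.1 in DMSO samples. This ratio was chosen after its parts were seen and was not tested.

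CD74 was the most abundant of the 10 genes. It lies on chromosome 5, minus strand, between bases 150401637 and 150412929, and had 103715, 112491 and 103171 normalized read counts in TP-064 samples, against 88157, 89986 and 92593 in DMSO samples. Treated samples lay above all controls, with replicate 2 the highest of them. CD74 rose, with a log2 fold change of 0.24 ± 0.04 (SE, with adjusted p = 0.000206 in limma), with leave-one-out values from 0.20 to 0.26. CTSS, the cysteine protease cathepsin S, lies on chromosome 1, minus strand, between bases 150730196 and 150765957, and had 7487, 8033 and 8113 normalized read counts in TP-064 samples, against 5744, 5989 and 5802 in DMSO samples. Each treated sample exceeded each control, and CTSS rose, with a log2 fold change of 0.43 ± 0.04 (SE, with adjusted p = 1.11e-07 in limma).

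HLA-DMA and HLA-DMB encode the alpha and beta chains of HLA-DM, the exchange factor for peptides. HLA-DMB, on chromosome 6, minus strand, between bases 32934629 and 32941070, had 1989, 1979 and 1943 normalized read counts in TP-064 samples, against 1447, 1497 and 1396 in DMSO samples. The treated samples were close together and all above the controls, and it rose, with a log2 fold change of 0.45 ± 0.04 (SE, with adjusted p = 2.48e-07 in limma). HLA-DMA, on chromosome 6, minus strand, between bases 32948613 and 32969094, had 2419, 2589.6 and 2494 normalized read counts in TP-064 samples, against 2249, 2425 and 2226 in DMSO samples. Its lowest treated sample, replicate 1, lay just under the highest control, replicate 2, so that the groups overlapped. Its log2 fold change of 0.12 ± 0.04 (SE, with adjusted p = 0.0255 in limma) was the smallest of the 10 genes. That call was lost in DESeq2 (adjusted p = 0.0527) and without DMSO replicate 1, DMSO replicate 3 or TP-064 replicate 2, with adjusted p of 0.0996, 0.116 and 0.0803 in limma. HLA-DMA shares 55 exon bases with BRD2 on the opposite strand, which had 12266 ± 293 normalized read counts in TP-064 samples and 14588 ± 201 in DMSO samples (SD, n = 3 each), a log2 fold change of -0.25. The ratio of HLA-DMB to HLA-DMA per kb was 0.448, 0.416 and 0.424 in TP-064 samples, against 0.350, 0.336 and 0.342 in DMSO samples; it was chosen after its parts were seen and was not tested.

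HLA-DOA and HLA-DOB encode the chains of HLA-DO, and they had the largest rises of the 10 genes. HLA-DOA, on chromosome 6, minus strand, between bases 33004178 and 33009612, had 6519, 6806 and 6426 normalized read counts in TP-064 samples, against 4016, 4196 and 4068 in DMSO samples. The treated samples were closely grouped and lay well above the controls. It rose, with a log2 fold change of 0.69 ± 0.04 (SE, with adjusted p = 2.82e-10 in limma), with a 95% interval from 0.61 to 0.76, and 87.4% of all tested genes had a lower log2 fold change. HLA-DOB, on chromosome 6, minus strand, between bases 32812763 and 32820466, had 119.7, 142 and 130.0 normalized read counts in TP-064 samples, against 75.8, 86.5 and 95.2 in DMSO samples. The groups did not overlap, although both were spread widely for their level. It rose, with a log2 fold change of 0.60 ± 0.13 (SE, with adjusted p = 0.00106 in limma), and its 95% interval, from 0.32 to 0.89, was the widest of the 10 genes. It was also the gene with the fewest recovered reads of the 10, at 73 in its lowest library. The intervals of HLA-DOA and HLA-DOB overlapped, and the ratio of HLA-DOA to HLA-DOB per kb was 27.1, 23.8 and 24.6 in TP-064 samples, against 26.3, 24.1 and 21.2 in DMSO samples. Class II genes are related in sequence, and no source used here says how reads that match more than 1 of them were counted, so their values are uncertain.

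**Figure D2:**
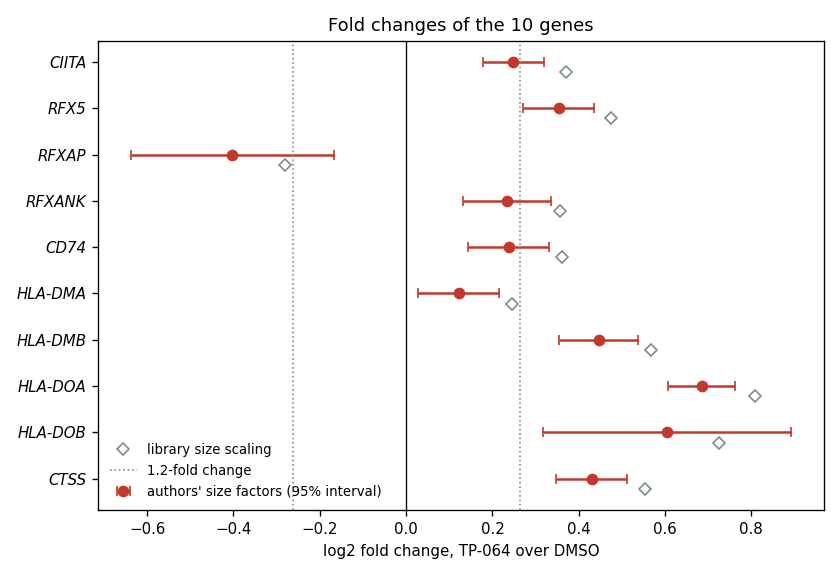
Log2 fold changes of the 10 genes, TP-064 over DMSO. Red points with 95% intervals come from limma on values with the authors' size factors, open diamonds from scaling to library size, and dotted lines mark a 1.2-fold change. RFXAP lies left of 0 under both scalings and the other 9 genes lie right of 0, with HLA-DOA at 0.69 farthest right.

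Promoter sequence is shown for CD74 and the 4 HLA-DM and HLA-DO genes because these are effector genes of the pathway whose promoters RFX and NF-Y are known to bind. RefSeq promoter windows on GRCh38.p14 were matched for 8 of the 10 genes; CIITA and CTSS had no match. Each stretch lies on the minus strand, is written 5′ to 3′ and starts 160 bases before the RefSeq start. It ends 11 bases before that start, or earlier where an exon annotated by GENCODE begins. Capitals mark the Y core ATTGG or its complement CCAAT, the X core GCAAC where the Y core follows it, and the run CTGATGATG.
HLA-DOA (chr6:33009613-33009751): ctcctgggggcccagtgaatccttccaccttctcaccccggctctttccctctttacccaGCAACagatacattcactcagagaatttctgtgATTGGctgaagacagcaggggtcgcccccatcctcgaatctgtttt
HLA-DOB (chr6:32817049-32817162): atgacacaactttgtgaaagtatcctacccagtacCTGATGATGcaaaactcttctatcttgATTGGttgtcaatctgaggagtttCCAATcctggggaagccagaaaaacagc
HLA-DMA (chr6:32953123-32953257): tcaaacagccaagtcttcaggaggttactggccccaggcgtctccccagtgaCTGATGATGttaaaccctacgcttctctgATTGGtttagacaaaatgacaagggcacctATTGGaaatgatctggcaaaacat
HLA-DMB (chr6:32941071-32941188): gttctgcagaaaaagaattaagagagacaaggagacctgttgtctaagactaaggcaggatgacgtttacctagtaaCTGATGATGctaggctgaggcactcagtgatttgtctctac
CD74 (chr5:150412930-150413070): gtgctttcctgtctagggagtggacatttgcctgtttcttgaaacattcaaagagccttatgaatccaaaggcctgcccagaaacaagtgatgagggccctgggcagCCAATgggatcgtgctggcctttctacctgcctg
The HLA-DOA stretch held GCAAC with ATTGG 28 bases further on. Such a pair, with 20 to 35 bases between its cores on the same strand, was found in no window of the other 7 matched genes and in 0.424% of 35116 windows of 250 bases before a start, both strands searched. Of the 9 classical chains 8 had a matched window, with 9 windows in all, and HLA-DRA had none. Among these windows the pair was found in HLA-DRB1, HLA-DRB5 and HLA-DQA2. The run CTGATGATG is the longest shared by HLA-DMA, HLA-DMB and HLA-DOB on the coding strand, and it was searched for after the sequences were seen. It occurred in 0.222% of all windows, and in the window of HLA-DRB1. ATTGG followed it after 20 bases in HLA-DMA and 18 in HLA-DOB. In HLA-DMB, CCAAT began 22 bases before the start, past the printed stretch. ATTGG on either strand was found in 6 of the 12 windows of the 8 matched genes, and in 32.0% of all windows; RFXAP and RFXANK had none. These are matches of letters and not measured binding sites.

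Levels of different genes were compared as normalized read counts per kb of merged exon. CD74 had 33436 ± 1643 after TP-064 and 28343 ± 700.1 after DMSO (means and SD of 3 samples) and ranked 52nd of 15997 tested genes with a length, by the mean of all 6 samples. RFX5 came next, with 4238 ± 181 after TP-064 and 3317 ± 88.0 after DMSO, then CTSS with 1863 ± 80.6 after TP-064 and 1382 ± 30.2 after DMSO and HLA-DOA with 1641 ± 49.4 after TP-064 and 1020.3 ± 23.2 after DMSO. RFXANK, at 1073 ± 75.4 after TP-064 and 911 ± 15.5 after DMSO, and HLA-DMA, at 987 ± 33.7 after TP-064 and 908 ± 43.0 after DMSO, overlapped in both groups and were not separated. CIITA, at 800.2 ± 21.4 after TP-064 and 674 ± 1.66 after DMSO, and HLA-DMB, at 423 ± 5.27 after TP-064 and 311 ± 10.9 after DMSO, followed them. The scarcest genes were RFXAP, at 57.0 ± 2.94 after TP-064 and 75.5 ± 6.73 after DMSO, and HLA-DOB, at 64.9 ± 5.64 after TP-064 and 42.6 ± 4.82 after DMSO, which changed places between the groups. The order depends on the length used. Per kb of the transcript with the longest coding sequence, CIITA ranked 3 of 10 in DMSO samples instead of 7, and CD74 and RFX5 stayed in front.

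**Figure D3:**
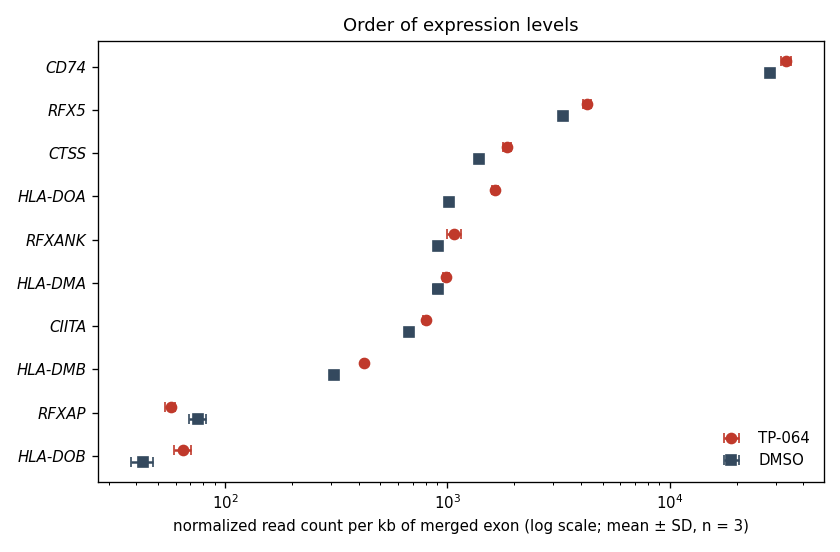
Normalized read counts per kb of merged exon for the 10 genes on a log axis, as mean ± SD of 3 samples, with TP-064 as red circles and DMSO as dark blue squares. Genes are ordered by their level in DMSO samples, from CD74 to HLA-DOB, and RFXAP is the gene whose DMSO square lies to the right of its TP-064 circle.

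HLA-DO restrains HLA-DM, so their transcripts were set against each other. The summed level of HLA-DOA and HLA-DOB over that of HLA-DMA and HLA-DMB, each per kb, was 1.22, 1.22 and 1.19 in TP-064 samples, against 0.867, 0.852 and 0.901 in DMSO samples. It was higher in all 3 treated samples than in any control, by 0.47 on the log2 scale (exact two-sided permutation test, p = 0.1, and 0.1 after adjustment over the 2 ratios tested). With 3 samples in each group 0.1 is the smallest p that test can give. CD74 over the summed classical chains was 0.583, 0.578 and 0.562 in TP-064 samples, against 0.654, 0.627 and 0.656 in DMSO samples, lower in all 3 treated samples by a log2 difference of -0.17 (exact two-sided permutation test, p = 0.1, and 0.1 adjusted). Counts not divided by length gave differences of 0.43 for HLA-DO over HLA-DM and -0.10 for CD74 over the classical chains. Whether HLA-DO lies above HLA-DM depends on the length used. Per kb of the transcript with the longest coding sequence, HLA-DOA had 1887 after TP-064 and 1173 after DMSO. HLA-DOB had 91.5 and 60.1 on that scale, and HLA-DMA alone had 2871 and 2640. The HLA-DO sum is mostly HLA-DOA. Per kb of merged exon HLA-DOA had 1641 and 1020.3, and HLA-DOB 64.9 and 42.6. The classical sum is mostly HLA-DRA, with 48190 after TP-064 and 34899 after DMSO per kb. HLA-DPA1, the next chain, had 3531 and 3394. The CD74 ratio therefore mainly sets CD74 against HLA-DRA. The log2 fold change of CD74, 0.24, lay below those of HLA-DRA, HLA-DPB1, HLA-DQA1, HLA-DQA2 and HLA-DQB1. It lay above those of HLA-DPA1, HLA-DRB1, HLA-DRB5 and HLA-DQB2.

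**Figure D4:**
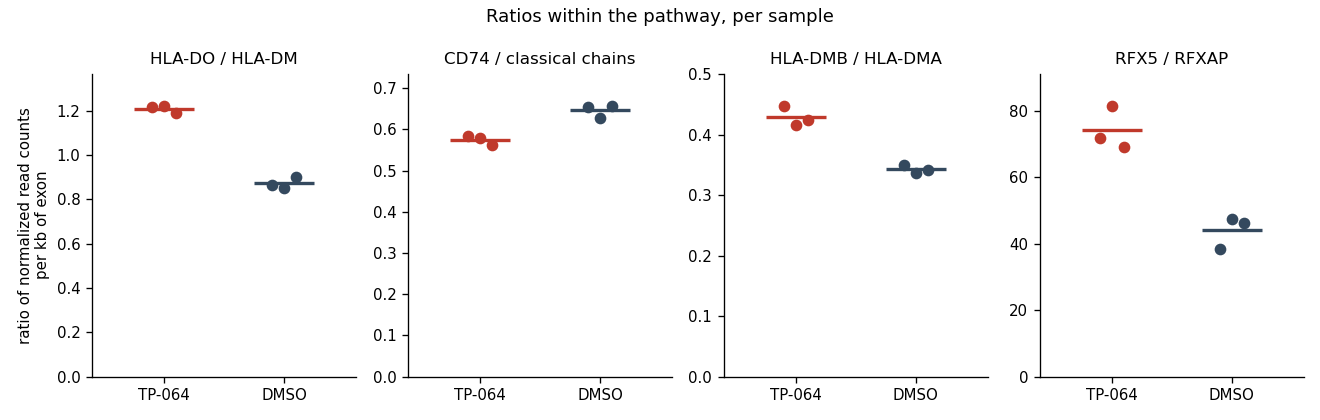
Ratios of normalized read counts per kb in each sample, TP-064 on the left and DMSO on the right of each panel, with lines at the means of 3. Each axis starts at 0. TP-064 samples lie above DMSO samples for HLA-DO over HLA-DM, HLA-DMB over HLA-DMA and RFX5 over RFXAP, and below them for CD74 over the classical chains.

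The classical chains, the products that these genes serve, were higher or not called. Of 9 tested chains 4 rose, 0 fell and 5 did not pass, with a median log2 fold change of 0.25, where 31.9% of all tested genes rose and 33.3% fell. With 4 of 9 called, the chains were called at a lower share than the 65.1% of all tested genes. Sizes of change for these chains and for the lists that follow are log2 fold changes, called by limma as above. HLA-DRA, the alpha chain of HLA-DR, had 61683 ± 2852 normalized read counts in TP-064 samples and 44670.5 ± 1463 in DMSO samples (SD, n = 3 each) and rose by 0.47. HLA-DPB1 rose by 0.39 and HLA-DQA2 by 0.44. HLA-DRB1, a beta chain of HLA-DR, was not called, at 0.03 (adjusted p = 0.568). Neither was HLA-DPA1, the alpha chain of HLA-DP, at 0.06 (adjusted p = 0.264). With library size scaling HLA-DRB1 and HLA-DPA1 passed as higher, at 0.16 and 0.18. With library size scaling 8 of the 9 passed as higher, where 41.5% of all tested genes did, and without TP-064 replicate 3, 6 did, where 31.0% of all did.

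Proteases of endosomes and lysosomes changed in both directions. Of 16 tested genes for endolysosomal proteases and their partners, 9 rose and 4 fell, with a median of 0.22, against 31.9% and 33.3% of all tested genes. CTSF, a cathepsin that can process the invariant chain, had 671 ± 49.9 normalized read counts in TP-064 samples and 221 ± 7.26 in DMSO samples (SD, n = 3 each) and rose by 1.59 (SE 0.08, adjusted p = 8.00e-11). CTSO, another cysteine cathepsin, rose by 1.11, and CTSA, a carboxypeptidase that protects lysosomal glycosidases, by 0.76. CTSH, an aminopeptidase, fell by 0.75 and the aspartic protease NAPSA fell by 1.07, both on the log2 scale.

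Of 11 tested genes for other proteins that bind class II promoters or are related to those that do, 6 fell and 1 rose, with a median of -0.22. These 7 called genes of 11 are close to the 65.1% called among all tested genes; 33.3% of all tested genes fell. NFYA, a subunit of the trimer that binds the Y box, had 2205 ± 50.4 normalized read counts in TP-064 samples and 3084 ± 113 in DMSO samples (SD, n = 3 each) and fell by 0.48; NFYB, another subunit, fell by 0.41. NFYC, the remaining subunit, was not called, at -0.10 (adjusted p = 0.0554). RFX2, a relative of RFX5 outside the class II complex, fell by 0.77. ATF2, a leucine zipper factor, was the gene that rose, by 0.12, and it lost that call without DMSO replicate 2 (adjusted p = 0.0644) and without TP-064 replicate 3 (adjusted p = 0.0547).

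Of 19 cofactors of CIITA 8 were higher and 8 lower, with a median of 0.06, against 31.9% higher and 33.3% lower among all tested genes. NCOA1, a p160 coactivator, had 2645 ± 143 normalized read counts in TP-064 samples and 1745 ± 55.3 in DMSO samples (SD, n = 3 each) and rose by 0.60. ZXDC, a zinc finger protein that binds CIITA, rose by 0.31 and CDK9, the kinase of the elongation factor P-TEFb, by 0.20. The deacetylase HDAC2 fell by 0.56 and the corepressor scaffold SIN3A fell by 0.55.

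Of 21 factors upstream of CIITA 10 were lower and 5 higher, with a median of -0.19. These 15 called genes of 21 are near the 65.1% called among all tested genes (33.3% lower and 31.9% higher). XBP1, a factor of plasma cells, had 1979 ± 76.4 normalized read counts in TP-064 samples and 4139.7 ± 167 in DMSO samples (SD, n = 3 each) and fell by 1.06. The interferon gamma receptor chain IFNGR2 fell by 0.50 and the factor IRF2 fell by 0.53, while SOCS1, an inhibitor of JAK kinases, rose by 0.91. The kinase JAK2 rose by 0.34, and neither the other receptor chain, IFNGR1, at -0.05, nor JAK1, at 0.01, was called. PAX5, the B lineage factor, rose by 0.31. With library size scaling the counts were 8 higher and 9 lower, where 41.5% of all tested genes were higher and 25.9% lower.

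Genes of surface turnover and endosomal traffic rose in 8 cases and fell in 5 of 17 tested, with a median of 0.04, against 31.9% and 33.3% of all tested genes. MARCH8, a ubiquitin ligase that drives class II from the surface, had 2861 ± 54.7 normalized read counts in TP-064 samples and 1789 ± 39.3 in DMSO samples (SD, n = 3 each) and rose by 0.68 (SE 0.04, adjusted p = 7.34e-10). CD83, which protects surface class II from such ligases, had 1028 ± 36.3 normalized read counts in TP-064 samples and 1737 ± 42.6 in DMSO samples (SD, n = 3 each) a log2 fold change of -0.76 (SE 0.05, adjusted p = 1.43e-09). The lysosomal membrane protein LAMP2 rose by 0.59 and the tetraspanin CD53 by 0.27. CD22, an inhibitory coreceptor of B cells, fell by 2.54. With library size scaling 11 of these genes were higher and 3 lower, against 41.5% and 25.9% of all tested genes.

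**Figure D5:**
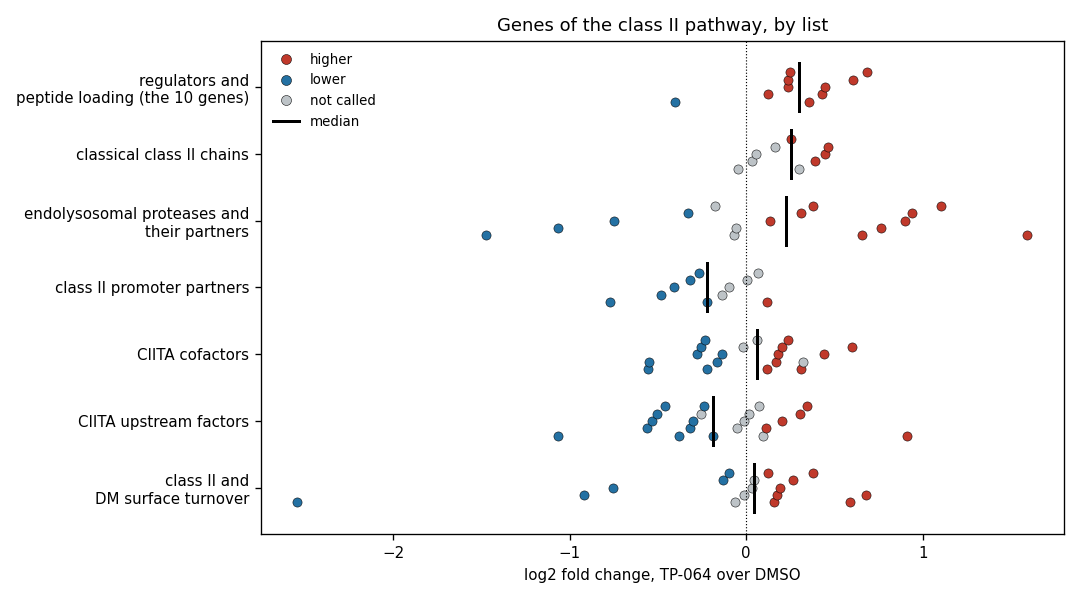
Log2 fold changes, TP-064 over DMSO, of every tested gene in the 10-gene set and 6 other lists of the pathway. Red points are called higher, blue lower and grey not called at a limma adjusted p of 0.05, and bars are medians. The 10 genes have a median of 0.30, the promoter partners -0.22, and CD22 is the point farthest left.

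The genes with the most similar pattern across the 6 samples were ranked by the root mean square difference of log2 values, each centred on its own mean, among 11098 genes with a mean of at least 100. For CIITA the 5 nearest were PDXDC1, MYO9A, TBC1D14, CDS2 and ANKRD27, with differences of 0.00711 to 0.0162. PDXDC1 had 8029, 7756 and 7611 normalized read counts in TP-064 samples, against 6572, 6571 and 6665 in DMSO samples. For HLA-DOA the 5 nearest were ZNF641, CYBC1, DHX32, ATP6V1D and LAT2, at 0.00919 to 0.0199. ZNF641 had 1828, 1884 and 1815 normalized read counts in TP-064 samples, against 1119, 1174 and 1144 in DMSO samples. None of these genes belongs to the lists above.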

How the data were processed

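RNA-seq of polyadenylated RNA from 6 samples was analysed. The submitters' processing notes name hg38, DESeq 1.18.0, HTSeq 0.6.0 and TopHat2 2.0.10. The annotation release, strand setting and any row filter were not given in the sources used. The authors deposited a signal per gene, the count divided by a size factor. All values were whole multiples of a step within 0.001, which gave recovered reads; in both replicates numbered 2 the step is so near to 1 that its size alone does not tell it from rounding. Groups come from the sample labels.

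The design named edgeR for raw counts and limma for normalized values. Because the table is normalized, limma 3.58.1 (trend, R 4.3.3) was run on log2(value + 1), a pseudocount of 1, for genes with a mean of at least 10; 2230 genes fell below it. Residual degrees of freedom were 4. Fold changes on that scale understate changes of low genes. The test was checked on simulated data in which few genes changed and the scaling was known, unlike here. That check does not cover the choice of scaling. Tests on recovered reads used edgeR 4.0.16, DESeq2 1.42.0 and limma-voom. Other alternatives were library size and TMM scaling, pseudocounts of 0.5 and 5, 2 filters, a threshold of 0.01, a 1.2-fold null, a replicate block and each sample left out. Replicate pairs differed by more than sampling noise, with a chi-square of 3.25 to 8.09 per degree of freedom.

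The members and lists were chosen with earlier results of these data known. Named genes are all members and, from each list, up to 3 called genes of smallest p in the main direction and up to 2 in the other, with CARM1 and the 5 genes nearest in pattern to CIITA and to HLA-DOA. DEXI, AC133065.3, BORCS8, NR2C2AP, BRD2, AL391069.1 and AL391069.3 were named for their exon overlap. Marker genes, NFYC, IFNGR1, JAK1, JAK2, HLA-DRB1 and HLA-DPA1 were named after their values were seen. Intervals and limits cover counting error and sample spread only.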

Additional observations from a re-analysis of the deposited data

How the results depend on the processing

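The 10 genes kept their directions under every alternative run, and 180 of 190 single-gene values kept their side of the threshold. Against a null of a 1.2-fold change 5 genes passed, as did 29 genes of the other lists in place of 68, and 5592 of all genes in place of 10449. Leaving out CIITA, RFX5, RFXANK and HLA-DMA, the 4 genes that overlap an opposite-strand exon, left 6, all called, 5 higher and 1 lower. Among all tested genes 65.1% were called, 31.9% higher and 33.3% lower. HLA-DMA lost its call in DESeq2, at the 0.01 threshold and without 3 of the samples. With 1 sample left out, 9 to 10 of the 10 genes, 66 to 70 genes of the other lists and 9733 to 10260 of all genes were called. In the same runs the log2 difference was 0.45 to 0.49 for HLA-DO over HLA-DM and -0.19 to -0.15 for CD74 over the classical chains; other length settings widened these to 0.43 and to -0.10. With 15 to 40 bases between the cores, 0.763% of promoter windows held the pair, and of the 8 genes with a window only HLA-DOA did. With library size scaling 8 classical chains were called in place of 4. The replicate numbers gave no sign of pairing: correlations of deviations between same-numbered samples were -0.0859, 0.0659 and -0.0793. With 3 libraries per group these values cannot show whether samples were handled in pairs, and the labels do not say. A fit with the replicate block called 10491 genes and all 10 members. Counts of 73 to 125 reads limit HLA-DOB and RFXAP. The cause of these differences was not tested.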
